A study of Bos taurus with 6 samples.

Results

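The miR-29 family was examined in liver small RNA libraries of Angus cattle raised under the grass-fed and the grain-fed regimen. Its members were taken by name from the deposited tables. These were bta-miR-29a, bta-miR-29b, bta-miR-29c, bta-miR-29d-5p, bta-miR-29d-3p and bta-miR-29e, which make 6 of the 1030 mature miRNAs listed. The grass-fed group held 3 Wye Angus steers, 21 months old and kept mainly on alfalfa, hay or pasture. The grain-fed group held 3 Wye Angus steers, 14 months old and kept mainly on corn silage, shelled corn and soybean with minerals. Each library came from the liver of 1 animal of a closed herd, and diet cannot be told apart from age.

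A miRNA is a short RNA that guides a silencing complex to matching sites in mRNAs and lowers their translation or stability. The miR-29 family is known above all for repressing mRNAs of collagens and other proteins of the extracellular matrix. In liver it is made by hepatocytes and by stellate cells, the cells that lay down scar collagen when activated, and its loss in stellate cells accompanies fibrosis. In metabolic tissues miR-29 has also been linked to insulin signalling, where raised levels dampen the response to insulin. The libraries described here hold small RNA. The study also sequenced liver mRNA, which was not analysed here, so nothing is said of collagen mRNAs or of the mRNAs of the insulin pathway.

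The family is encoded in pairs of neighbouring precursors. All 6 precursors of the files matched the RefSeq annotation of the ARS-UCD2.0 assembly by name, a newer build than the one behind the files, so the match gives names and order only. bta-mir-29a lies next to bta-mir-29b-1, both overlapping the annotated gene LOC107131356 between KLF14 and MKLN1. bta-mir-29b-2 lies next to bta-mir-29c, and both overlap no annotated gene between CD34 and CD46. bta-mir-29d lies next to bta-mir-29e, both overlapping the annotated gene LOC518224, with CD46 as the next protein-coding gene before them. Mature bta-miR-29b can come from either of its precursors, and its counts under them differed by at most 2 reads in any library, so reads of the pairs cannot be separated at bta-miR-29b. The reads of bta-miR-29d-5p are listed under bta-mir-29c and under bta-mir-29d with equal counts in all libraries, so that this 5p arm cannot be given to either. bta-miR-29a, bta-miR-29c and bta-miR-29d-3p are near-copies of each other, and how reads with a sequencing error were divided among them is not stated in the sources used here.

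The depth of counted miRNA reads differed between the groups. The paper reports similar numbers of raw reads for both groups. The share of reads counted as miRNAs thus differed along with diet, and the reason was not tested. The largest count over the precursors was taken for each mature miRNA, and the total was 3824592 to 6133960 counts in the grass-fed and 464875 to 892929 counts in the grain-fed libraries. Of the 1030 listed miRNAs, 456 had a count above 2 in at least 2 libraries and were tested with the quasi-likelihood test of edgeR after TMM scaling, with Benjamini-Hochberg adjustment over all 456. At FDR 0.1, 87 of them were differentially expressed miRNAs (DEmiRNAs), or 19.1%, with 43 higher (9.43%) and 44 lower (9.65%) in grass-fed liver. This split was 82 higher and 42 lower with upper-quartile scaling and 9 higher and 65 lower with total counts alone. Over the tested miRNAs the middle log2 fold change (median) moved from 0.13 under TMM to 0.31 and to -0.29. The paper, with edgeR and the same FDR, reports far more miRNAs lower than higher in grass-fed liver. It does not name its scaling. Of the 6 family members, 5 were tested. bta-miR-29e was left out by the filter.

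Under TMM scaling none of the 5 tested members was a DEmiRNA, 0 of 5 against the 19.1% of all tested miRNAs, and 1 of 5, bta-miR-29a, had an unadjusted p below 0.05, as had 25.2% of all tested miRNAs. The same number, 0 of 5, passed in the DESeq2 Wald test, in the edgeR exact test and in limma-voom. In that order, 91, 88 and 94 of all 456 tested miRNAs passed. The FDR of bta-miR-29a was 0.105 in DESeq2, 0.202 in the exact test and 0.1003 in limma-voom, so some misses were narrow. bta-miR-29a, bta-miR-29c, bta-miR-29d-5p and bta-miR-29d-3p had fitted values above 0, bta-miR-29b had one below 0, and that of bta-miR-29d-5p changed sign with the scaling. The ranges of TMM-scaled CPM did not overlap between the groups at 3 of the 5, bta-miR-29a, bta-miR-29c and bta-miR-29d-3p, where 32.9% of all tested miRNAs did not overlap. With total counts alone these 3 overlapped and bta-miR-29b did not, and bta-miR-29c also overlapped with relative log expression size factors. With 5 miRNAs, such counts are too small to be read against the background. In bulk tissue, fewer cells of a type and less RNA per cell cannot be told apart.

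bta-miR-29a was the dominant form. Values for single libraries are given here and below in the order of replicates 1, 2 and 3. In the grass-fed libraries it had 8961, 9497 and 6772 counts, which are 1887, 2238 and 1777 CPM after TMM scaling. In the grain-fed libraries it had 1435, 979 and 803 counts, which are 1398, 1386 and 1425 CPM. All 3 grass-fed libraries lay above all 3 grain-fed libraries, and the grain-fed values lay within a band narrower than counting error. The 803 reads of grain-fed replicate 3 allow 1328 to 1527 CPM (exact Poisson 95% interval, counting error only). By mean CPM bta-miR-29a ranked 35 of 456 in grass-fed and 43 of 456 in grain-fed liver. The mean was 1967 ± 241 CPM in grass-fed liver and 1403 ± 19.7 CPM (SD, n = 3 each) in grain-fed liver. The difference was 0.49 on the log2 scale (standard error 0.19, 95% interval 0.07 to 0.91) and did not pass the threshold (FDR = 0.130, edgeR). The fold was 1.40, and its interval reached from 1.05 to 1.88. Across 17 alternative settings the log2 fold change lay between 0.06 and 0.67 and the FDR between 0.0132 and 0.890.

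The call of bta-miR-29a depended on how the libraries were scaled. With upper-quartile scaling it had 2090 ± 53.8 CPM in grass-fed liver and 1315 ± 51.2 CPM (SD, n = 3 each) in grain-fed liver, and it passed at 0.67 on the log2 scale (FDR = 0.0132, edgeR), the only alternative in which it did. With total counts alone it had 1695 ± 127 CPM in grass-fed liver and 1625 ± 94.1 CPM (SD, n = 3 each) in grain-fed liver, the groups overlapped, and the log2 fold change was 0.06 (FDR = 0.890, edgeR). bta-miR-122, the main hepatocyte miRNA, took 26.2% to 31.7% of the grass-fed and 14.9% to 21.6% of the grain-fed counts. With bta-miR-122 taken out of the counts and TMM scaling kept, the log2 fold change of bta-miR-29a was 0.49 (FDR = 0.125, edgeR), close to the value with it. TMM trims the most abundant miRNAs when it sets its factors, so this fit could change little. The part of bta-miR-122 in the value with total counts alone was not tested.

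**Figure D1:**
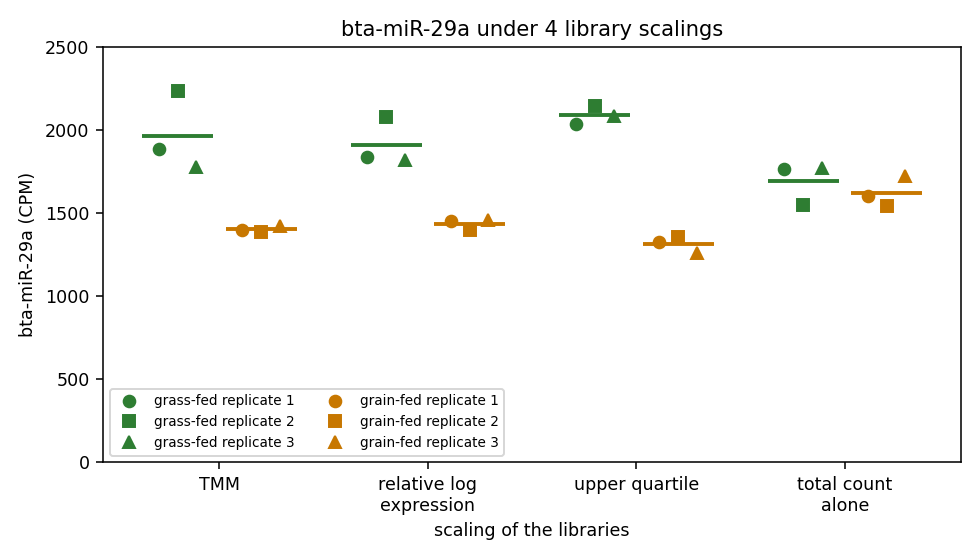
CPM of bta-miR-29a (vertical axis, from 0) in each library under 4 scalings of the libraries (horizontal axis). Points are libraries and bars are group means of 3. The grass-fed libraries lie above the grain-fed libraries under TMM, relative log expression and upper-quartile scaling, and the groups overlap with total counts alone.

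bta-miR-29b, which is transcribed from the gene pairs of both bta-miR-29a and bta-miR-29c, was the second most abundant member. It had 314, 283 and 270 counts in the grass-fed libraries, or 66.1, 66.7 and 70.9 CPM after TMM scaling. In the grain-fed libraries it had 99, 64 and 33 counts, or 96.4, 90.6 and 58.5 CPM. Grain-fed replicates 1 and 2 lay above every grass-fed library and grain-fed replicate 3 lay below them, so the groups overlapped. The log2 fold change was -0.29 (standard error 0.25, 95% interval -0.84 to 0.25, FDR = 0.513, edgeR), and it stayed below 0 in the 17 alternatives, between -0.70 and -0.11, with FDR between 0.144 and 0.809. With total counts alone the ranges did not overlap, with 59.5 ± 12.4 CPM in grass-fed liver and 94.2 ± 20.7 CPM (SD, n = 3 each) in grain-fed liver, and the test still did not pass (FDR = 0.144, edgeR).

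bta-miR-29c was far below bta-miR-29a, from which it differs little in sequence. Its grass-fed counts were 130, 64 and 70, or 27.4, 15.1 and 18.4 CPM. Its grain-fed counts were 14, 10 and 8, or 13.6, 14.2 and 14.2 CPM. The highest grain-fed value lay just under the lowest grass-fed value, and grass-fed replicate 1 stood above the other libraries. The grain-fed spread of ± 0.312 CPM (SD, n = 3) was smaller than counting error, since the 8 reads of grain-fed replicate 3 allow 6.13 to 28.0 CPM (exact Poisson 95% interval, counting error only). The log2 fold change was 0.55 (standard error 0.38, 95% interval -0.29 to 1.38, FDR = 0.413, edgeR) and was 0.19 without grass-fed replicate 1.

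bta-miR-29d-3p and bta-miR-29d-5p had levels of the same order as bta-miR-29c. bta-miR-29d-3p, the arm that resembles the other family members, had 70, 96 and 50 counts in the grass-fed libraries and 13, 4 and 6 counts in the grain-fed libraries. These counts correspond to 14.7, 22.6 and 13.1 CPM in grass-fed liver and to 12.7, 5.66 and 10.6 CPM in grain-fed liver, so that the lowest grass-fed library lay just above the highest grain-fed library. It had the highest fitted value in the family, a log2 fold change of 0.76, and also the widest error (standard error 0.43, 95% interval -0.18 to 1.70, FDR = 0.290, edgeR). With each library left out in turn its value ranged from 0.41 without grain-fed replicate 2 to 1.02 without grain-fed replicate 1, and with total counts alone it was 0.31 (FDR = 0.690, edgeR). bta-miR-29d-5p, the opposite strand, listed under both hairpins, had 93, 76 and 78 counts in the grass-fed libraries against 20, 15 and 8 in the grain-fed ones. Its levels were 19.6, 17.9 and 20.5 CPM in grass-fed liver and 19.5, 21.2 and 14.2 CPM in grain-fed liver, and the groups overlapped fully. The log2 fold change was 0.05 (standard error 0.31, 95% interval -0.63 to 0.73, FDR = 0.934, edgeR).

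bta-miR-29e was almost absent. It had 0, 3 and 1 counts in the grass-fed libraries and 0 counts in each grain-fed library. With a floor of 3 counts for the group as a whole, a count of 0 in the grain-fed group allows a level of up to 1.31 CPM, which is above the 0.707 CPM of the highest grass-fed library. A difference in bta-miR-29e was therefore not detectable at this depth, and no fold is given. Its neighbour in the genome, bta-mir-29d, gave 3p reads in all libraries.

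**Figure D2:**
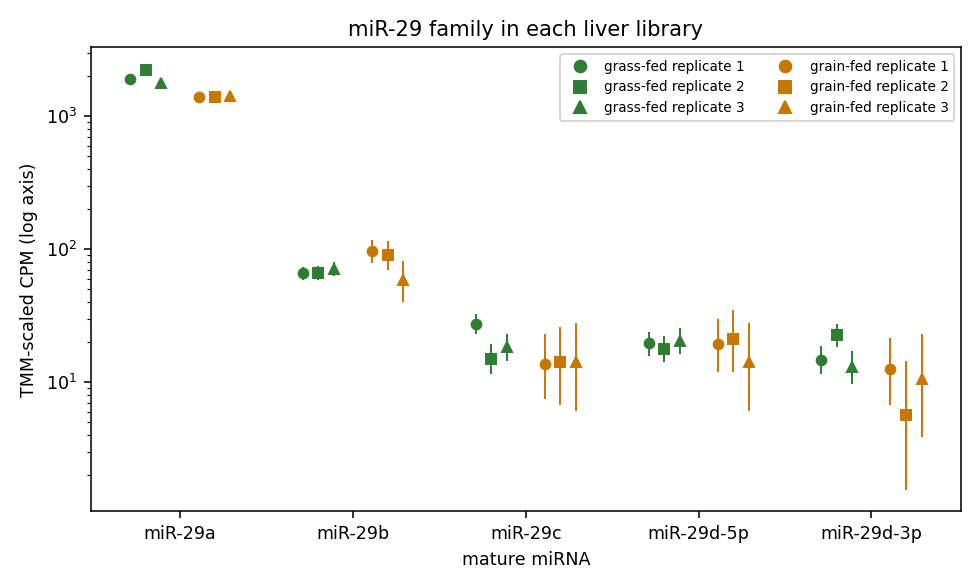
TMM-scaled CPM (vertical log axis) of the 5 tested members in each library, with exact Poisson 95% intervals that cover counting error only. bta-miR-29a lies between 1386 and 2238 CPM, bta-miR-29b between 58.5 and 96.4 CPM, and the other 3 between 5.66 and 27.4 CPM.

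The order of the levels was the same at the top in all libraries. Each read covers a whole mature miRNA, so CPM was compared between members without dividing by length, although ligation can favour some sequences over others. bta-miR-29a was above bta-miR-29b, and bta-miR-29b above the rest, in each of the 6 libraries. Below them the order was not fixed. bta-miR-29c exceeded bta-miR-29d-5p in 1 library, equalled it in 1 and was below it in 4, while it exceeded bta-miR-29d-3p in 5 of 6 libraries. bta-miR-29a made up 94.0% ± 0.696 of the family's reads in grass-fed and 91.9% ± 1.50 in grain-fed liver (SD, n = 3 each). The 6 members together had 2092 ± 240 CPM in grass-fed liver and 1527 ± 11.7 CPM in grain-fed liver after TMM scaling (SD, n = 3 each), a log2 ratio of 0.45. This grain-fed spread was smaller than counting error, as for bta-miR-29a. As a share of all mature miRNA counts, without further scaling, the 6 members took 0.180% ± 0.0148 and 0.177% ± 0.00787 (SD, n = 3 each), a log2 ratio of 0.03, so the difference in the summed level depended on the scaling.

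**Figure D3:**
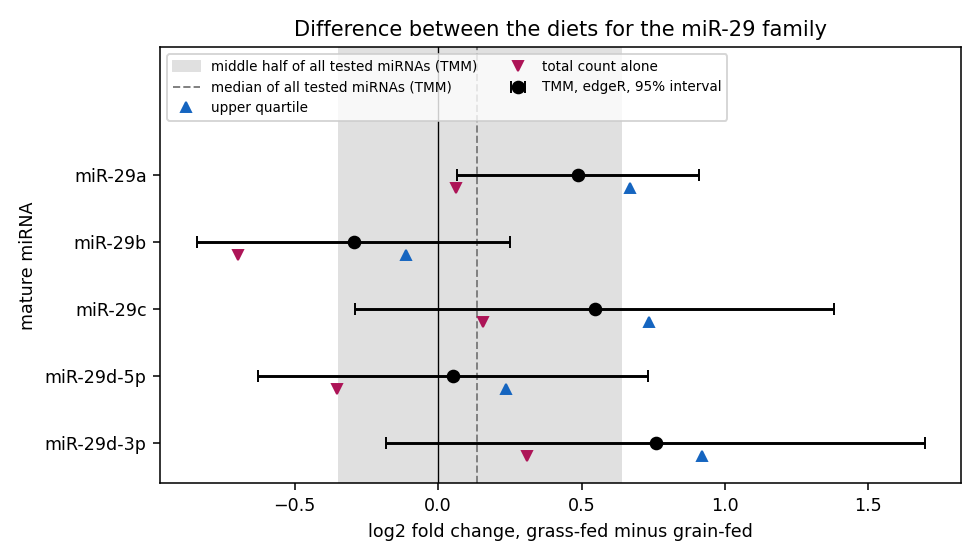
Log2 fold change, grass-fed minus grain-fed, of the 5 tested members (horizontal axis). Circles and bars are edgeR estimates with 95% intervals under TMM, triangles are the estimates under 2 other scalings, and the grey band spans the first to the third quartile of all tested miRNAs, -0.34 to 0.64. The interval of bta-miR-29a alone leaves out 0, and no member passed FDR 0.1 under TMM.

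Ratios between members within a library do not depend on scaling, and 3 pairs were compared with two-sided exact permutation tests. With 3 libraries against 3, the smallest p such a test can give is 0.1, so none can reach 0.05. The ratio of bta-miR-29a to bta-miR-29b reads was 28.5, 33.6 and 25.1 in the grass-fed libraries and 14.5, 15.3 and 24.3 in the grain-fed libraries. All grass-fed libraries had the higher ratio, but grass-fed replicate 3 and grain-fed replicate 3 were almost level, and the interval of the latter, 17.2 to 35.6 (exact binomial, 95%), held all 3 grass-fed values. The mean log2 ratio was 4.85 ± 0.210 in grass-fed and 4.13 ± 0.411 in grain-fed liver (SD, n = 3 each), a difference of 0.72 (exact permutation p = 0.1, 0.3 after Benjamini-Hochberg adjustment over the 3 pairs). With each library left out in turn the difference lay between 0.58 and 0.95.

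The ratio of bta-miR-29a to bta-miR-29c did not separate the groups. The grass-fed libraries had 68.9, 148 and 96.7, and the grain-fed libraries had 102, 97.9 and 100. The mean log2 ratio differed by -0.01 between the groups (exact permutation p = 0.9, 0.9 adjusted). The spread was ± 0.554 among grass-fed and ± 0.0332 among grain-fed libraries (SD, n = 3 each). This grain-fed spread was smaller than counting error, so it is not read as a steadier ratio in grain-fed liver. With 8 bta-miR-29c reads, the interval of grain-fed replicate 3 was 50.7 to 233 (exact binomial, 95%) and held every grass-fed value. The ratio of bta-miR-29b to bta-miR-29c, members that share a gene pair, ran to 2.42, 4.42 and 3.86 in the grass-fed libraries, against 7.07, 6.40 and 4.12 in the grain-fed ones. The ranges overlapped, and the difference of -0.73 on the log2 scale gave p = 0.2 in the exact permutation test (0.3 adjusted). In both pairs that hold bta-miR-29b, its part was larger in grain-fed replicates 1 and 2 than in any grass-fed library.

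**Figure D4:**
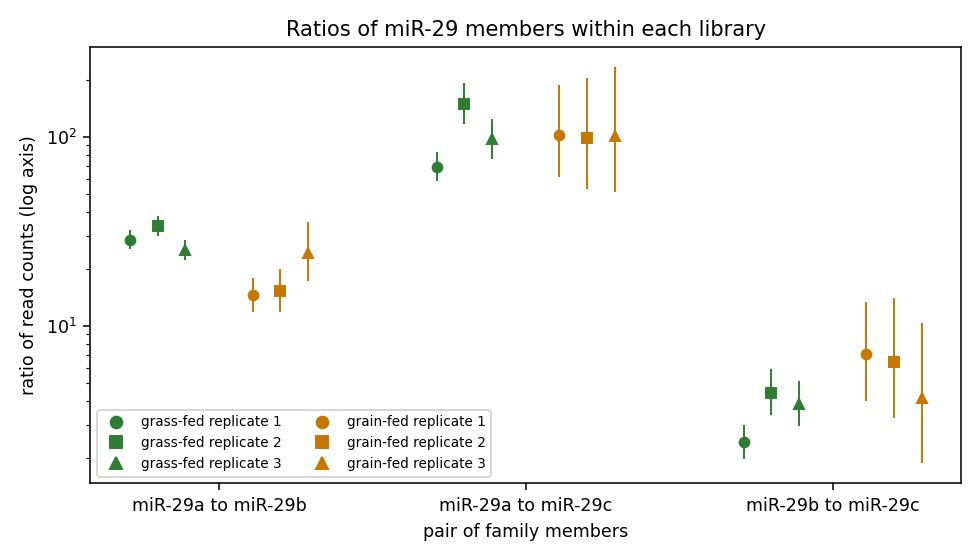
Ratio of read counts (vertical log axis) for 3 pairs of members in each library, with exact binomial 95% intervals that cover counting error only. The ratio of bta-miR-29a to bta-miR-29b is 25.1 to 33.6 in the grass-fed and 14.5 to 24.3 in the grain-fed libraries, while the other pairs overlap.

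Grain-fed replicates 1 and 2 also differed from the other libraries in miRNAs of the pancreas. bta-miR-217, found mainly in pancreatic acinar cells, had 17 and 31 counts there, 0 counts in grain-fed replicate 3 and 1 to 4 counts in the grass-fed libraries, although these are deeper. bta-miR-216a had 5 and 3 counts in the same pair of libraries and 0 in the other 4. Of the 4 pancreas markers, 0 were higher and 3 were lower in grass-fed liver, where 9.65% of all tested miRNAs were lower. The CPM ranges of these 3 overlapped between the groups, and 1, bta-miR-375, did not pass. The 4 summed to 14.2 to 136 CPM in grain-fed and 32.3 to 36.0 CPM in grass-fed liver. In grass-fed liver most of the sum was bta-miR-375. The part of the 4 markers in the ratio of bta-miR-29a to bta-miR-29b was not tested.

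Within the hairpins of bta-mir-29c and bta-mir-29d, the 5p arm was not a rare by-product. bta-miR-29d-5p made up 31.7%, 32.2% and 39.4% of the reads of the 5p arm, bta-miR-29c and bta-miR-29d-3p together in the grass-fed libraries. The share was 42.6%, 51.7% and 36.4% in the grain-fed libraries, each from 22 to 47 reads, and the Wilson 95% interval of grain-fed replicate 3 was 19.7% to 57.0%. The groups overlapped, with means of 34.4% ± 4.29 and 43.5% ± 7.73 (SD, n = 3 each, exact permutation p = 0.2).

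Other miRNAs of fibrosis and of insulin or glucose regulation were described from lists written from general knowledge. The lists were chosen with earlier results of these data known, so their shares are given as a description. Of 8 miRNAs known to promote fibrosis or to rise in activated stellate cells, 3 were higher in grass-fed liver, where 9.43% of all tested miRNAs were, 0 were lower and 5 did not pass, and their median log2 fold change was 0.37 against 0.13 for all tested miRNAs. bta-miR-199a-5p had 2998 ± 338 CPM in grass-fed liver and 1967 ± 116 CPM (SD, n = 3 each) in grain-fed liver, which differ by 0.61 on the log2 scale (FDR = 0.0517, edgeR). bta-miR-199a-3p, the other arm, differed by 0.62 (FDR = 0.0533, edgeR) and shares its reads with bta-miR-199c. bta-miR-221 differed by 1.18 (FDR = 0.0493, edgeR), although its ranges overlapped, and lost the call in 4 of the 6 fits that left out a library, as the arms of miR-199a did in 3. With total counts alone 0 of the 8 passed, where 74 of all 456 tested miRNAs did. None passed without grass-fed replicate 1, where 71 of all 433 did, or without grain-fed replicate 2, where 49 of all 453 did. Without grain-fed replicate 1, 1 of the list passed, where 65 of all 453 did.

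Of 11 miRNAs known to restrain fibrosis, 2 were higher, 2 were lower and 7 did not pass, beside 9.43% higher and 9.65% lower over all tested miRNAs, with a median log2 fold change of 0.10. bta-miR-122 was higher by 1.12 on the log2 scale (FDR = 0.00417, edgeR), and bta-miR-30c, which targets connective tissue growth factor, by 0.79 (FDR = 0.0203, edgeR), a call lost with total counts alone and without grain-fed replicate 1 or 2. Lower in grass-fed liver were bta-miR-16b, a regulator of cell-cycle genes, at -0.83 (FDR = 0.0235, edgeR), and bta-miR-146a, a brake on innate immune signalling, at -0.67 (FDR = 0.0920, edgeR). bta-miR-122 and bta-miR-16b kept the call with any library left out, and bta-miR-146a lost it with any library but grass-fed replicate 1 left out. In this list 2 passed without grain-fed replicate 1, where 65 of all 453 tested miRNAs did. Without grain-fed replicate 2, 2 also passed, where 49 of all 453 did.

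In the list for insulin and glucose regulation, 19 of 21 miRNAs were tested, 3 were higher, 1 was lower and 15 did not pass, with a median log2 fold change of 0.41. bta-miR-320a rose by 0.89 on the log2 scale (FDR = 0.0183, edgeR). Of the 8 let-7 miRNAs tested in the list, 2 were higher, 0 were lower and 6 did not pass, with bta-let-7b at -0.11. Those higher were bta-let-7a-5p at 0.70 (FDR = 0.0533, edgeR) and bta-let-7d at 0.66 (FDR = 0.0862, edgeR). bta-miR-26b fell by 0.95 on the log2 scale (FDR = 0.0234, edgeR). bta-let-7d lost the call in all 6 fits that left out a library and bta-let-7a-5p in 4 of them, and with total counts alone all 3 increases lost it. In all, 4 of the 19 passed, or 21.1%, near the 19.1% of all tested miRNAs. With upper-quartile scaling 11 of the list passed, where 124 of all 456 tested miRNAs did. The number was 2 without grass-fed replicate 3, where 86 of all 439 passed, and 2 without grain-fed replicate 2, where 49 of all 453 passed.

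Among the 132 other tested miRNAs with a mean of at least 100 CPM, those with the pattern across the 6 libraries most like bta-miR-29a were bta-miR-191, bta-miR-199a-3p, bta-miR-199c, bta-miR-199a-5p and bta-miR-1307. Pearson's r of log2 CPM was 0.992 for bta-miR-191 and 0.975 for bta-miR-1307, and 0.985, 0.985 and 0.982 for the miR-199 forms. Each of the 5 was a DEmiRNA, with log2 fold changes from 0.61 to 0.92, which is above that of bta-miR-29a. With total counts alone each lost the call, as each did without grain-fed replicate 2. The miR-199 forms also lost it without grass-fed replicate 1 and without grain-fed replicate 1. These correlations and fold changes share the scaling factors of the libraries and the split between the diets, and they are given as a description. Those most like bta-miR-29c were bta-miR-24-3p, bta-miR-28, bta-miR-378, bta-miR-21-5p and bta-miR-450b, with r from 0.818 to 0.930, and none of these 5 passed FDR 0.1.

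Marker miRNAs of liver cell types were set beside bta-miR-29a, with 9.43% higher and 9.65% lower over all tested miRNAs as the background. Of 6 markers of stellate and other mesenchymal cells, 3 were higher in grass-fed liver, 0 were lower and none was at 0, and their sum was 80073 to 116234 CPM in grass-fed liver and 74021 to 86764 CPM in grain-fed libraries. Those higher were bta-miR-145 and both arms of miR-199a. These arms of 1 miRNA are also in the list of miRNAs that promote fibrosis. They lost the call with total counts alone, with the replicate block and in 3 of the 6 fits that left out a library. The call of bta-miR-145 was not checked in the alternative settings. Of 5 hepatocyte markers, 2 were higher, 0 were lower and 3 did not pass, among them bta-miR-194 at -0.43, and their sum was 516658 to 820756 CPM against 328230 to 389886 CPM, most of it from bta-miR-122 and bta-miR-148a, with none at 0. Of 6 leukocyte markers, 0 were higher, 1 was lower and 5 did not pass, among them bta-miR-155 at 0.40. The lower one was bta-miR-146a, which lost the call in 5 of the 6 fits that left out a library. The sum of the 6 was 1176 to 1779 CPM in grass-fed liver and 1785 to 2143 CPM in grain-fed libraries. Most of it came from bta-miR-142-5p and bta-miR-146a. Of 2 endothelial markers none passed, and of 5 markers of biliary epithelium 1 was higher, 1 was lower and 3 did not pass. The part of these cell types in the level of bta-miR-29a was not tested.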

How the data were processed

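Small RNA of 18 to 30 nt from liver was sequenced by the authors, 1 library per animal. The authors removed adapters, low-quality reads and reads outside their length range, aligned the rest to the ARS-UCD1.2 build and used miRDeep2 to count known miRNAs. The miRDeep2 settings and version are not given in the sources here. Counts were deposited without normalization for every combination of mature miRNA and precursor. The deposited CPM divides them by the total over all combinations, 555824 to 7018546 per library, and was not used.

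The largest count among its precursors stood for each mature miRNA. Groups and replicate numbers came from the sample titles. Those exceeding 2 counts in 2 or more libraries were scaled by TMM and tested with edgeR version 4.0.16 in R version 4.3.3 (quasi-likelihood, Benjamini-Hochberg, FDR 0.1), since the paper names edgeR and this FDR. Standard errors were derived from the fold change and the F statistic. The test was checked on simulated counts. Replicates of a group differed beyond sampling noise (chi-square per degree of freedom from 33.7). The members, lists and named miRNAs were chosen with earlier results of these data known. Named were all members, list miRNAs past FDR 0.1, and the 5 miRNAs most correlated with bta-miR-29a and with bta-miR-29c. Alternatives were other scalings, filters and counting, DESeq2 version 1.42.0, the edgeR exact test, limma-voom (limma version 3.58.1), a replicate block, and leaving out single libraries. Mature sequences were not used here.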

Additional observations from a re-analysis of the deposited data

How the results depend on the processing

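Of the members, bta-miR-29a, bta-miR-29b, bta-miR-29c and bta-miR-29d-3p kept their direction in all 17 alternatives. With upper-quartile scaling bta-miR-29a passed FDR 0.1 at 0.67, so that 1 member passed. The insulin list then had 11 calls, beside 124 over all 456 tested miRNAs, and the log2 ratio of the summed level was 0.63. With total counts alone that ratio was 0.0287, and the list of miRNAs that promote fibrosis had 0 calls, beside 74 of 456 tested miRNAs. In that setting bta-miR-24-3p (-0.0516), bta-miR-378 (-0.0337) and bta-miR-21-5p (-0.19) turned below 0. bta-miR-29d-5p turned to -0.0194 with relative log expression size factors, -0.35 with total counts alone, -0.0085 in DESeq2 and -0.0663 with at least 10 counts in 3 libraries. The log2 ratio of bta-miR-29a to bta-miR-29c turned to 0.11 with a pseudocount of 1. With each library left out in turn, the ranges were -0.10 to 0.0904 for bta-miR-29d-5p, -0.10 to 0.29 for bta-miR-21-5p, -0.30 to 0.26 for that ratio, 49 to 86 for all DEmiRNAs (49 without grain-fed replicate 2), and 0 to 3, 2 to 4 and 2 to 4 calls in the lists that promote fibrosis, restrain it and concern insulin. The causes of these changes were not tested.

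Replicate numbers did not pair the libraries. The correlations of deviations from the group means were -0.28, -0.37 and -0.06 for numbers 1, 2 and 3, and no library correlated best with its own number. With the replicate block 82 miRNAs passed and 0 members did, with bta-miR-29a at 0.48 (FDR = 0.336, edgeR). In the 3 ratios the block left the differences as they were, with exact permutation p of 0.25 for bta-miR-29a to bta-miR-29b, where 0.25 is the smallest that 3 pairs allow.

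Depth limits the rarer members. In grain-fed replicate 3, 1 read is 1.77 CPM and a count of 0 allows up to 5.32 CPM, against 0.632 CPM in grass-fed replicate 1.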
